A study of Mus musculus with 6 samples.

Results

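The replication-dependent histone genes are the clustered genes that supply most of the histone protein of a dividing cell. They were taken here as all protein-coding genes whose GENCODE M21 symbol begins with *Hist1h*, *Hist2h*, *Hist3h* or *Hist4h*, which gave 67 of the 56262 genes listed in the count table. Of these, 54 belong to the *Hist1* cluster on chromosome 13, 10 to *Hist2* on chromosome 3, 2 to *Hist3* on chromosome 11 and 1 to *Hist4* on chromosome 6. By family, 6 encode the linker histone H1, 18 encode H2A, 18 H2B, 12 H3 and 13 H4. A further 3 genes with such symbols are not protein-coding and were left out. RNA-seq was performed on leg muscle of mouse fetuses at embryonic day 18.5 (E18.5d) from 3 wild-type (WT) and 3 *SYISL* knockout (KO) samples. *SYISL* is a long noncoding RNA (lncRNA) transcribed from within *Synpo2*, and its knockout line came from earlier work of the same group. Mice of the same genotype were mated, so each KO fetus had a KO mother and the effects of fetal and maternal genotype cannot be told apart. The labels give no further treatment, and they do not say whether fetuses were pooled or shared a litter, so the p-values measure only the spread between these samples. The question addressed was how the histone genes differed between WT and KO fetal muscle.

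A replicating cell needs new histones in step with its new DNA. The core histones H2A, H2B, H3 and H4 form the nucleosome, and H1 binds the DNA between nucleosomes. The clustered genes mostly lack introns, and during S phase their mRNAs end in a short stem-loop that is bound by SLBP in place of a poly(A) tail. When S phase ends this form of the mRNA is degraded quickly. Some members also use a poly(A) signal further downstream and make a polyadenylated mRNA in differentiated cells. The replacement histones, most of them encoded outside the clusters, are in the main made throughout the cell cycle from ordinary polyadenylated mRNAs.

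The stem-loop is shown because it sets these genes apart from other mRNAs. GENCODE M21 transcripts were searched after the stop codon, on the transcript strand, for the 16 letters GGNNNTNNTNANNNCC whose 6 outer bases on each side can pair, G with T included. A match was present in 46 of the 67 members. Within 100 bases of the stop codon a match was present in 68.7% of the members and in 0.0733% of the 21834 other coding genes. The 5 forms held by more than 1 member are given here, with the 4 bases of the loop in capitals.
Form of 26 members, of H1, H2A, H2B and H3: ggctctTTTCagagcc
Form of 7 H4 members: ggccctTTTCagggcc
Form of 6 members, of H1, H2B and H3: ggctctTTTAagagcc
Form of *Hist1h4i* and *Hist2h4*: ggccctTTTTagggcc
Form of *Hist1h4b* and *Hist1h4j*: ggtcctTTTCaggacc
In *Hist1h1c* the stem-loop lay at chr13:23739512-23739527 on the plus strand, 24 bases after the stop codon, and the annotated transcript went on for 840 bases beyond it. In *Hist1h3c* it lay at chr13:23745047-23745062 on the minus strand, also 24 bases after the stop codon, and 74 annotated bases followed. Of the 21 members without a match, 17 have an annotated 3′ UTR of 48 bases or less, so that the searched stretch is short or missing. The other 4 are *Hist1h2bc*, *Hist1h2bq*, *Hist1h2br* and *Hist2h2be*. The first 3 of these are annotated with an intron, which in *Hist1h2bc* is 7554 bases long, whereas 62 members have a single exon.

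A poly(A) signal near the annotated end is shown for 3 members with long annotated ends, as a window of 20 bases with the signal AATAAA in capitals.
Hist1h1c (chr13:23740335-23740354, plus strand): tgcttctAATAAAaagcgtt
Hist2h2be (chr3:96223710-96223729, plus strand): tattattAATAAAgttaccg
Hist3h2a (chr11:58956790-58956809, plus strand): tatgcccAATAAAataagag
In these annotated transcripts the signal ended 20, 16 and 28 bases before the last base, respectively.

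Promoter sequence is shown for members that moved in opposite directions in KO and for the *Hist1h2ac* and *Hist1h2bc* pair, whose start sites face each other across 250 bases. The sequences are the 250 bases before the RefSeq start site on GRCm38.p6. Capitals mark matches on either strand to the CCAAT box (searched by these letters), to the TATA box, searched as TATAAA, and to the octamer bound by POU2F1, searched as ATTTGCAT. No match overlapped another in these windows.
Hist1h1c (chr13:23738557-23738806, plus strand): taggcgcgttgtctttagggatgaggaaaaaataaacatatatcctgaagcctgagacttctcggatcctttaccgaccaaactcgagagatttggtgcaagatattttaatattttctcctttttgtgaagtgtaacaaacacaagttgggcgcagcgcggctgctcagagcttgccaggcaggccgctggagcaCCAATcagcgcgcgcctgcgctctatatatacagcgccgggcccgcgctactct
Hist1h2ac (chr13:23683960-23684209, minus strand): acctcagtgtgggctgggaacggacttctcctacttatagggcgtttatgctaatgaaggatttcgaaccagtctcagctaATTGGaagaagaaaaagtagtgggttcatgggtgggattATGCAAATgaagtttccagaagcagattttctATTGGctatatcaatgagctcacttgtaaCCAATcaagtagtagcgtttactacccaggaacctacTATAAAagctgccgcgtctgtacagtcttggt
Hist1h3c (chr13:23745522-23745771, minus strand): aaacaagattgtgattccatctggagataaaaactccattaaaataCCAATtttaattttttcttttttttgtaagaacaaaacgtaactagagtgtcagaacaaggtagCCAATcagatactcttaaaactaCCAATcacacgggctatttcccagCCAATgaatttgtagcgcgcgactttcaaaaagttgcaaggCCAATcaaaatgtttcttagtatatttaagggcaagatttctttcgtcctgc
Hist1h2bj (chr13:22042948-22043197, plus strand): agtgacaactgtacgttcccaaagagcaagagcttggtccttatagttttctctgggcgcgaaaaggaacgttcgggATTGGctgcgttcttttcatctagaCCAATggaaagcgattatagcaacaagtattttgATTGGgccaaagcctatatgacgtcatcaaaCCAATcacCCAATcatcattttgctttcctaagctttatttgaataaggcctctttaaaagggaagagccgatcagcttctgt
*Hist1h1c*, which rose in KO, had 1 CCAAT match, 54 bases before the start site. *Hist1h3c* and *Hist1h2bj*, which were called lower, had 5 each, but *Hist1h2bj* could be tested only because WT was the higher group. The number of matches per window was not compared over the other called members. The window of *Hist1h2ac* held 3 CCAAT matches, 1 octamer and 1 TATA match, and it covers most of the stretch shared with *Hist1h2bc*. RefSeq windows of 300 bases, with 50 bases after the start site, were found for 62 members. CCAAT occurred in 85.5% of these windows, compared with 37.4% of all 32851 promoter windows. TATAAA occurred in 56.5% compared with 13.6%, and the octamer in 22.6% compared with 1.74%. All 14 members with the octamer were H2A or H2B genes, whereas CCAAT was present in 3 of 12 H4 windows and in every window of the other 4 families. CCAAT was found in 7 of the 8 windows of members that rose and in 16 of 20 of those not called, so it did not separate them.

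The libraries held 82054811 to 102233181 counts, and 3 counts, the limit that a count of 0 allows, corresponded to 0.0293 to 0.0366 CPM (counts per 1000000). This limit covers counting error only. CPM below uses library sizes scaled by the TMM method. *Synpo2* was at 137, 131 and 139 CPM in WT and 193, 220 and 229 CPM in KO, and no gene was matched to the symbol *SYISL*, so the loss of the knocked-out transcript was not checked here. The tissue label was checked with 12 skeletal muscle markers, none at 0. Their summed level was 21006 to 23436 CPM in WT and 44076 to 54076 CPM in KO. In the same samples, 12 keratinocyte markers summed to 17358 to 25746 CPM in WT and to 771 to 893 CPM in KO. The muscle markers thus show that muscle RNA was present, but not that the samples were muscle alone.

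Histone genes of the clusters were a small part of these libraries, and a few members carried most of the signal. Together the 67 members reached 55.5, 54.2 and 54.7 CPM in WT and 71.0, 88.6 and 88.3 CPM in KO, a ratio of 1.51. Without the 6 most counted members the ratio was 1.18. *Hist1h1c* (encoding H1.2) and *Hist1h2bc* (an H2B gene) accounted for 62.3% of all member counts, and with *Hist2h2be*, *Hist3h2a*, *Hist1h2be* and *Hist1h4i* for 83.9%. In contrast, the members had a median of only 9.33 counts per library. Per kilobase of exon, *Hist1h2bc* was at 17.2 and *Hist1h1c* at 14.7 CPM on average over the 6 samples, followed by *Hist1h4i* at 2.69, *Hist2h2be* at 2.2 and *Hist3h2a* at 2.16 CPM per kb. The next 7 members lay between 0.555 and 1.37 CPM per kb.

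**Figure D1:**
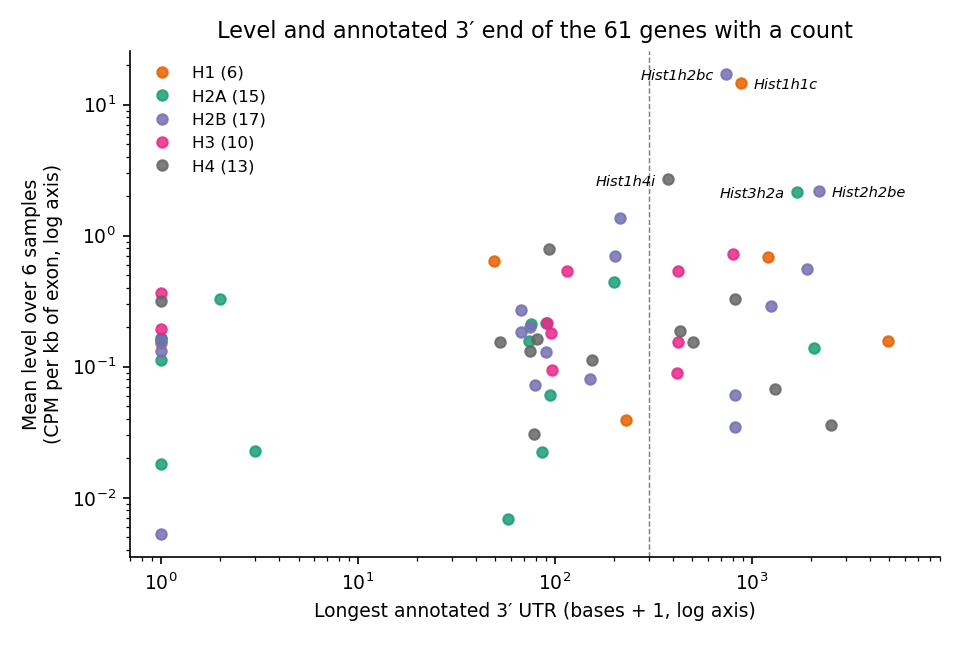
Mean level over the 6 samples in CPM per kb of exon (log axis) against the longest annotated 3′ UTR in bases plus 1 (log axis), for the 61 members with at least 1 count, coloured by family. The dashed line marks a 3′ UTR of 300 bases, and the 5 highest members, named in the plot, all lie to its right.

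The members with most counts were those annotated with a long 3′ UTR. The 22 members with a 3′ UTR over 300 bases, a limit chosen after the values were seen, held 92.7% of the member counts, and the other 45 held 7.28%. A longer exon also collects more reads. Per kilobase of exon the medians of these groups were 0.238 and 0.154 CPM, so the gap rested on a few members such as *Hist1h1c* and *Hist1h2bc* rather than on every member with a long end. Genes transcribed from facing promoters showed the same unevenness. In the 12 pairs whose start sites lie within 500 bases of each other, *Hist1h2bc* was 123 times above *Hist1h2ac* per kb and *Hist2h2be* was 36.3 times above *Hist2h2ac*. In the other 9 pairs with counts for both genes the ratio was 1.03 to 5.05, as for *Hist1h2bf* and *Hist1h2ad* at 1.08. Low counts make these ratios uncertain. *Hist2h2ac* had a mean of only 3 counts per library, and the ratio of 5.05 set *Hist1h2br* at 7.33 against *Hist1h2ap* at 0.333 counts.

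Among RNAs known to lack a poly(A) tail, 13 symbols were looked up, which matched 14 entries. These held only 31 to 68 counts per library in all, and 6 entries had no count. Library preparation is not described in the sources used here, and whether poly(A) RNA was selected was not tested.

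A group of members could not be measured. Of the 67, 6 had no count in any sample. Of these, *Hist2h2aa1*, *Hist2h2aa2*, *Hist2h2bb*, *Hist2h3b* and *Hist2h3c1* lie wholly within exons of other annotated genes. All of their 100-base stretches occur in another annotated transcript on either strand, which the overlapping genes alone can account for. Reads there may have been counted elsewhere or not at all, since the settings for overlapping genes and for reads with several matches are not given. *Gm20632*, annotated antisense over *Hist2h2aa2*, had 102, 88 and 110 counts in WT and 157, 184 and 192 counts in KO, which did not overlap. Without a stated strand setting, these reads cannot be assigned to either strand. The remaining member at 0 was *Hist1h2aa*, an H2A gene known from testis. Its neighbour *Hist1h2ba* and the testis H1 gene *Hist1h1t* had 1 and 21 counts, respectively, summed over all samples. In total, 28 members shared at least 50% of their 100-base stretches with another transcript, and their separate values are uncertain. Transcripts that overlap a member at the same place, on either strand, were included in this sharing. These 28 held 2.91% of the member counts.

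*SYISL* KO was accompanied by higher levels of several abundant H1 and H2B members and by a lower level of the H3 member *Hist1h3c*. Of 36 members that passed the filter on low counts, 9 rose and 3 fell in KO (edgeR quasi-likelihood test, Benjamini-Hochberg adjusted p under 0.05 over 22071 genes and fold change over 1.5), and 24 were not called. Without KO replicate 3 only 5 rose, and without KO replicate 2, 6 rose and 5 fell. With library size alone as the scaling, 7 rose and 4 fell. Over all genes tested, 8.31% were called higher and 8.39% lower. The median log2 fold change was 0.08 for the tested members and 0.00 for all genes tested. Without a fold limit, 10 members were higher and 3 lower, beside 21.9% and 23.1% of all genes. Other scaling factors tilted that balance over all genes, since library size alone gave 3730 higher and 6475 lower and upper-quartile factors gave 6077 and 3719. KO samples lay wholly above WT in 11 of the tested members and wholly below in 6, beside 27.3% and 28.5% of all genes. Passing the filter depends on the level: 19 members passed it in both genotypes, among them all 9 that rose and 1 that fell, whereas 2 of the 3 that fell passed through WT alone. The count of members that fell therefore cannot be read as a measure of the whole set.

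**Figure D2:**
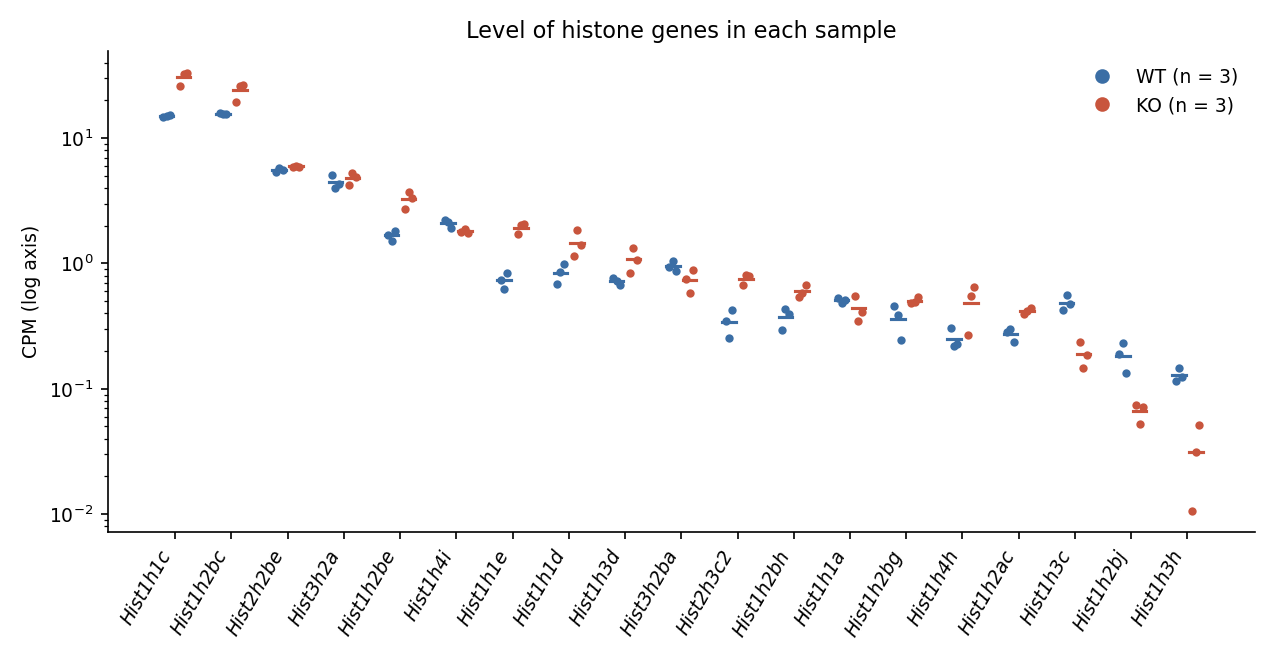
Level in CPM (log axis) of the 12 members with the highest level per kb and of the other called members, in order of mean CPM. Each point is 1 sample and bars are group means (n = 3), and the KO points of *Hist1h1c*, *Hist1h2bc*, *Hist1h2be* and *Hist1h1e* all lie above WT.

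The linker histone genes changed most in summed level. H1 genes summed to 17.4 ± 0.452 CPM (SD, n = 3) in WT and to 34.7 ± 4.47 CPM in KO, a ratio of 2.0. *Hist1h1c* (chr13:23738808-23740367, plus strand, 1 exon) was measured at 14.9, 15.1 and 15.4 CPM in WT and at 26.0, 32.7 and 33.4 CPM in KO. The KO samples did not overlap with WT, and KO replicate 1 was the lowest of them. Its log2 fold change was 1.02 ± 0.09 (SE, adjusted p = 1.46e-05 by the edgeR quasi-likelihood test). *Hist1h1e* (H1.4) had 0.739, 0.629 and 0.834 CPM in WT and 1.72, 2.03 and 2.06 CPM in KO. It had the highest log2 fold change of the tested members, 1.39 ± 0.14 (adjusted p = 4.30e-05 by edgeR). Its exons overlap those of *Hist1h2be* by 496 bases on the same strand, so part of its reads cannot be assigned to either gene. *Hist1h1d* (H1.3) was at 0.687, 0.859 and 0.985 CPM in WT and 1.15, 1.86 and 1.40 CPM in KO. Its samples also did not overlap between genotypes, and the log2 fold change was 0.80 ± 0.20 (adjusted p = 0.0101 by edgeR). By contrast, *Hist1h1a* (H1.1) was at 0.528, 0.484 and 0.512 CPM in WT and 0.555, 0.346 and 0.411 CPM in KO. These values overlapped and the gene was not called (adjusted p = 0.417 by edgeR). *Hist1h1b* (H1.5) and *Hist1h1t* did not pass the filter.

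H2B genes made up 44.6% of the member counts, and 3 of the 9 tested rose while 1 fell. The summed level was 25.5 ± 0.217 CPM in WT, compared with 35.8 ± 4.58 CPM in KO. Of these sums, *Hist1h2bc* alone made up 15.7 CPM in WT and 24.1 CPM in KO on average, so the sum does not describe every H2B member. *Hist1h2bc* (chr13:23684199-23692908, plus strand, 2 exons) was at 15.8, 15.6 and 15.6 CPM in WT and at 19.4, 26.3 and 26.5 CPM in KO. All KO samples were above WT, and KO replicate 1 was nearest to it. The log2 fold change was 0.62 ± 0.11 (adjusted p = 0.00125 by edgeR), just past the limit of fold change, and the call was lost without KO replicate 2 or 3, at 0.55 and 0.56, and with library size alone, at 0.55. *Hist1h2be* was at 1.68, 1.51 and 1.83 CPM in WT and 2.74, 3.71 and 3.34 CPM in KO. Its log2 fold change was 0.96 ± 0.13 (adjusted p = 0.000285 by edgeR). Its annotated exons overlap those of *Hist1h1e* by 496 bases on the same strand, and reads of that stretch cannot be assigned to either gene. *Hist1h2bh* rose by 0.68 ± 0.19 on the log2 scale (adjusted p = 0.0188 by edgeR), a call that was lost without WT replicate 1 or KO replicate 3, at log2 fold changes of 0.53 and 0.58, and with DESeq2 (0.68, adjusted p = 0.066). *Hist2h2be*, the third most counted member, was at 5.42, 5.81 and 5.56 CPM in WT and 5.94, 6.03 and 5.89 CPM in KO. All KO values were above WT, but by little, with a log2 fold change of 0.09 ± 0.07 (adjusted p = 0.297 by edgeR). *Hist3h2ba* was at 0.930, 1.04 and 0.872 CPM in WT and 0.747, 0.577 and 0.894 CPM in KO, and *Hist1h2bg* at 0.454, 0.387 and 0.246 CPM in WT and 0.480, 0.493 and 0.545 CPM in KO. Neither was called. *Hist1h2bj*, in contrast, had 18, 19 and 14 counts in WT and 7, 5 and 7 counts in KO. It was called lower by edgeR, but it passed the filter through WT alone, so it could be tested only because WT was the higher group. It shares its promoter region with *Hist1h2ag*, which was not called at -0.55.

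**Figure D3:**
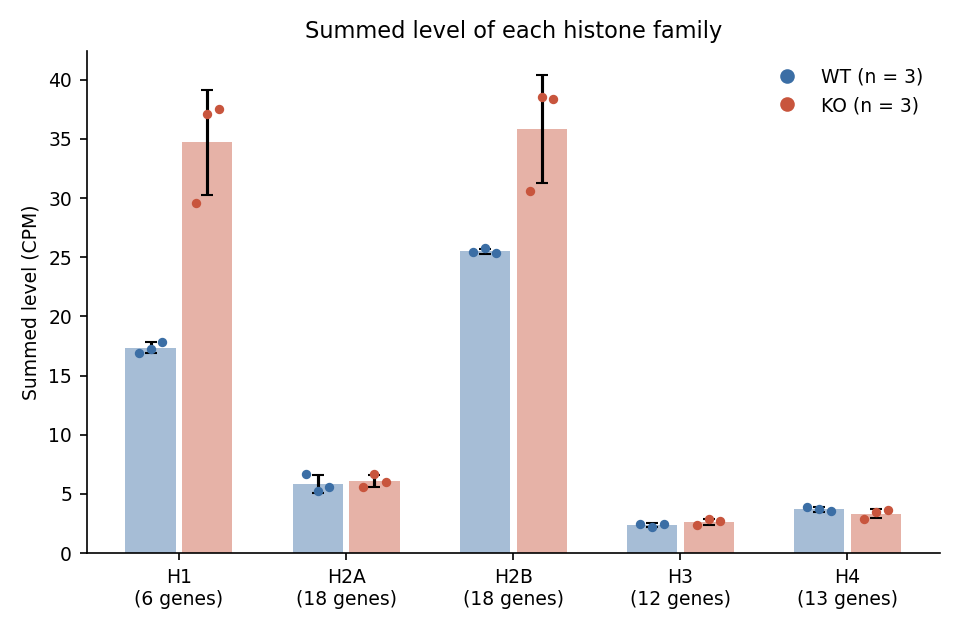
Summed level in CPM of the members of each histone family in WT and KO. Bars are means, error bars SD and points single samples (n = 3), and the KO points lie above all WT points for H1 and H2B and among them for H2A.

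The sums of the other core histones differed less. H2A genes summed to 5.83 ± 0.761 CPM in WT and 6.10 ± 0.537 CPM in KO, H3 genes to 2.39 ± 0.142 and 2.66 ± 0.253 CPM, and H4 genes to 3.72 ± 0.203 and 3.35 ± 0.379 CPM. The samples of the genotypes overlapped in each of these 3 families. *Hist3h2a*, the leading H2A member, was at 5.08, 4.04 and 4.28 CPM in WT and 4.25, 5.28 and 4.87 CPM in KO. It was not called (log2 fold change 0.10 ± 0.11, adjusted p = 0.492 by edgeR), and 708 bases of its exons overlap *Trim17*. Of the other H2A members, *Hist1h2ac* rose by 0.61 ± 0.19 on the log2 scale (adjusted p = 0.0252 by edgeR), near the 0.62 of its partner *Hist1h2bc*. That call was lost without WT replicate 1 or 3 and without KO replicate 2 or 3, at log2 fold changes of 0.51 to 0.65. It was also lost with DESeq2 (adjusted p = 0.163), with no filter (adjusted p = 0.0527 by edgeR) and with library size alone, at a log2 fold change of 0.55. *Hist2h2ab* was too low to test, with 0, 0 and 2 counts in WT and 8, 9 and 10 counts in KO.

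H3 and H4 members moved in both directions. *Hist2h3c2* was at 0.349, 0.254 and 0.426 CPM in WT and 0.672, 0.808 and 0.792 CPM in KO. It rose by 1.12 ± 0.20 on the log2 scale (adjusted p = 0.0016 by edgeR), and it shares 61.6% of its 100-base stretches with other transcripts. *Hist1h3d* was at 0.761, 0.726 and 0.673 CPM in WT and 0.843, 1.32 and 1.07 CPM in KO. Its log2 fold change of 0.58 ± 0.18 (adjusted p = 0.0251 by edgeR) lay just under the fold limit. *Hist1h3c* had 40, 46 and 50 counts in WT and 22, 14 and 18 counts in KO. It fell by 1.35 ± 0.23 on the log2 scale (adjusted p = 0.00114 by edgeR) and was the only called member lower in KO with over 0.2 CPM on average. *Hist1h3h* had 11, 12 and 13 counts in WT and 1, 3 and 5 counts in KO. It was called lower by edgeR, but it also passed the filter through WT alone, and 92.0% of its stretches recur elsewhere, so the reads may belong to another copy. Of the H4 genes, *Hist1h4i* was at 2.22, 2.14 and 1.92 CPM in WT and 1.78, 1.90 and 1.75 CPM in KO. All KO samples were below WT, yet it was not called (log2 fold change -0.21 ± 0.10, adjusted p = 0.127 by edgeR). *Hist1h4h* had 29, 18 and 24 counts in WT and 25, 52 and 63 counts in KO, which overlapped. It was called higher (log2 fold change 0.96 ± 0.33, adjusted p = 0.0384 by edgeR), but not without WT replicate 2 or 3 or KO replicate 2 or 3, at log2 fold changes of 0.70 to 0.88, nor with limma-voom (0.87, adjusted p = 0.0755).

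Calls were also counted by annotated 3′ end and by position in the cluster. Over all genes tested, 8.31% were called higher and 8.39% lower. Among the 20 tested members with a 3′ UTR over 300 bases, 8 rose and the other 12 were not called. Of these 20, 2 had passed the filter through WT alone and 2 through KO alone. All 22 members with such an end, tested or not, summed to 49.7, 48.7 and 49.6 CPM in WT and 66.6, 84.1 and 83.4 CPM in KO. Among the 16 tested members with a shorter 3′ UTR, 1 rose, 3 fell and 12 were not called. Of these 16, however, 5 had passed the filter through WT alone, among them 2 of the 3 that fell, and 1 through KO alone. Among members that passed it in both genotypes, 8 of 13 with a long end rose, and of 6 with a shorter end 1 rose and 1 fell. All 45 members with a shorter 3′ UTR, tested or not, summed to 5.74, 5.43 and 5.10 CPM in WT and 4.43, 4.55 and 4.88 CPM in KO. KO thus lay above WT in every sample for the sum of the 22 and below for that of the 45. Of the former sum, *Hist1h1c* and *Hist1h2bc* made up 30.6, 30.7 and 31.0 CPM in WT and 45.4, 59.0 and 59.9 CPM in KO. The latter sum includes members that were not tested or that passed the filter through WT alone. The difference between the groups was not tested, since level, filter and length go together here. With a limit of 150 bases, 8 of 23 members with a longer end and 1 of 13 with a shorter end rose. On chromosome 13, the segment from 23531050 to 23934851 holds 31 members and 77.3% of the member counts. Of its 22 tested members 8 rose and 1 fell, and position was not separated from level. In the segment from 21715763 to 21837530, with 18 members, and in that from 22035164 to 22043676, with 5, only 5 and 3 members were tested. The single member called lower in each, *Hist1h3h* and *Hist1h2bj*, passed the filter through WT alone.

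**Figure D4:**
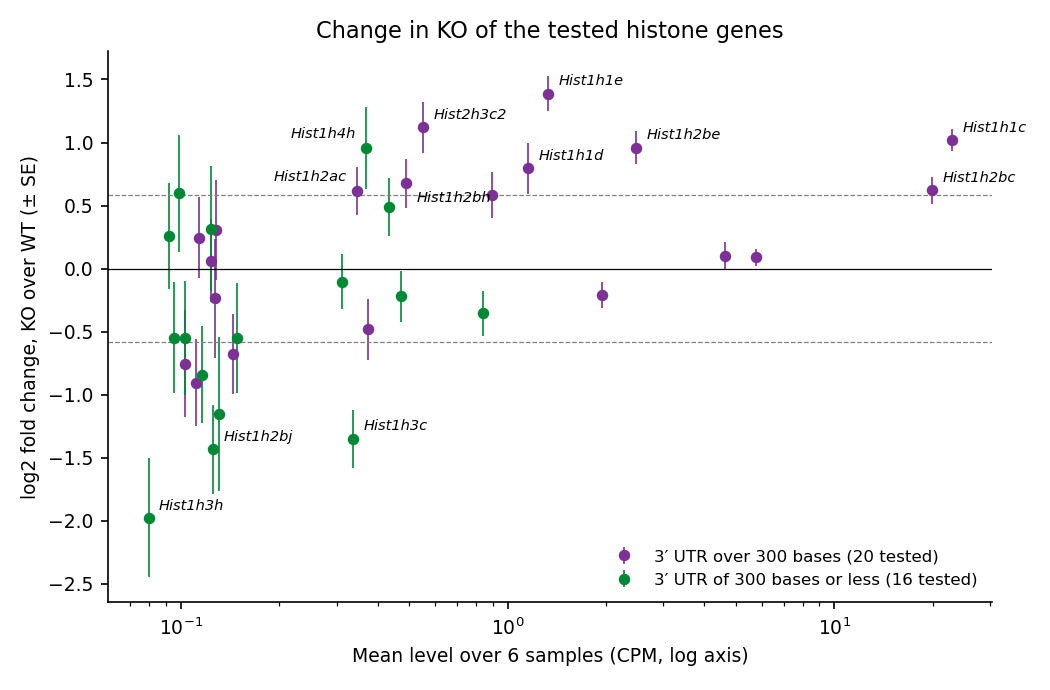
Log2 fold change of KO over WT with its SE for the 36 tested members against mean level in CPM (log axis), coloured by the length of the annotated 3′ UTR. Dashed lines mark a fold change of 1.5, and called members are named. Of the 20 members with long ends, 8 were called higher and 12 were not called, among them *Hist2h2be*, *Hist3h2a* and *Hist1h4i* at high levels. The 3 called lower, 2 of which passed the filter through WT alone, have short ends and low levels. The limit of 300 bases was chosen after the values were seen.

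Other genes that make, process or replace histones, and genes of S phase and mitosis, moved little, and mostly down. The 8 lists also cover cell cycle exit and small RNAs without a poly(A) tail. Across their 118 tested genes, edgeR called 1 gene, *H2afj*. Without a fold limit, 77 were lower and 6 higher at an adjusted p under 0.05, and at an unadjusted p under 0.05 these were 86 and 6. With upper-quartile factors, 53 were lower and 9 higher without a fold limit. DESeq2 and limma-voom each called *H2afj* alone as well. *H2afj*, a replacement H2A gene, was at 22.7, 25.04 and 21.6 CPM in WT and 11.1, 10.3 and 9.87 CPM in KO, and fell by 1.15 ± 0.07 on the log2 scale (adjusted p = 2.03e-06 by edgeR). The gene lies at chr6:136808244-136810074, near the member *Hist4h4*. The replacement H3.3 gene *H3f3a* was at 343 ± 17 CPM (SD, n = 3) in WT and at 284 ± 11.4 CPM in KO, and *H3f3b* at 392 ± 31.6 and 353 ± 10.8 CPM, with log2 fold changes of -0.28 and -0.15. *H2afz* and *H2afx*, which encode the variants H2A.Z and H2A.X, were at -0.20 and -0.40. By contrast, *H1f0*, the H1 gene typical of resting and differentiated cells, was at 377, 348 and 351 CPM in WT and 429, 427 and 419 CPM in KO, with a log2 fold change of 0.25 ± 0.05 (adjusted p = 0.00252 by edgeR). It was thus higher in KO like *Hist1h1c*, *Hist1h1d* and *Hist1h1e*, although by less than 1.5-fold.

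In the 17 genes of histone mRNA 3′ processing and decay, 9 were lower and 1 higher without a fold limit, and the median log2 fold change was -0.18. *Slbp*, which encodes the stem-loop binding protein, was at 51.8, 51.6 and 48.6 CPM in WT and 48.04, 45.97 and 43.6 CPM in KO. The samples did not overlap, and the log2 fold change was -0.14 ± 0.05 (adjusted p = 0.0324 by edgeR). Of the 14 genes of histone transcription, 9 were lower, with a median of -0.15, and *Npat*, the coactivator of the clusters, was at -0.09 (adjusted p = 0.0633 by edgeR). Of 21 histone chaperones 14 were lower, with a median of -0.16. The 28 S phase genes had a median of -0.24, and 24 of them were lower. Among these *Pcna*, the sliding clamp of DNA replication, averaged 114 ± 1.65 CPM in WT samples and 103 ± 2.24 CPM in KO samples, with a log2 fold change of -0.14. Of 20 mitosis genes, 15 were lower, with a median of -0.21, and *Top2a* and *Mki67* were at -0.20 and -0.11. The cell cycle exit list was split, with 4 of 10 genes higher and 2 lower, among them *Cdkn1c*, which encodes a cell cycle inhibitor, at -0.24. Of the 118 listed genes tested, 77 were lower and 6 higher without a fold limit, beside 23.1% and 21.9% of all genes. The 23.1% includes the 8.39% called lower with a fold change over 1.5. Lower genes were thus more frequent among these 118 than among all genes, but this difference was not tested.

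**Figure D5:**
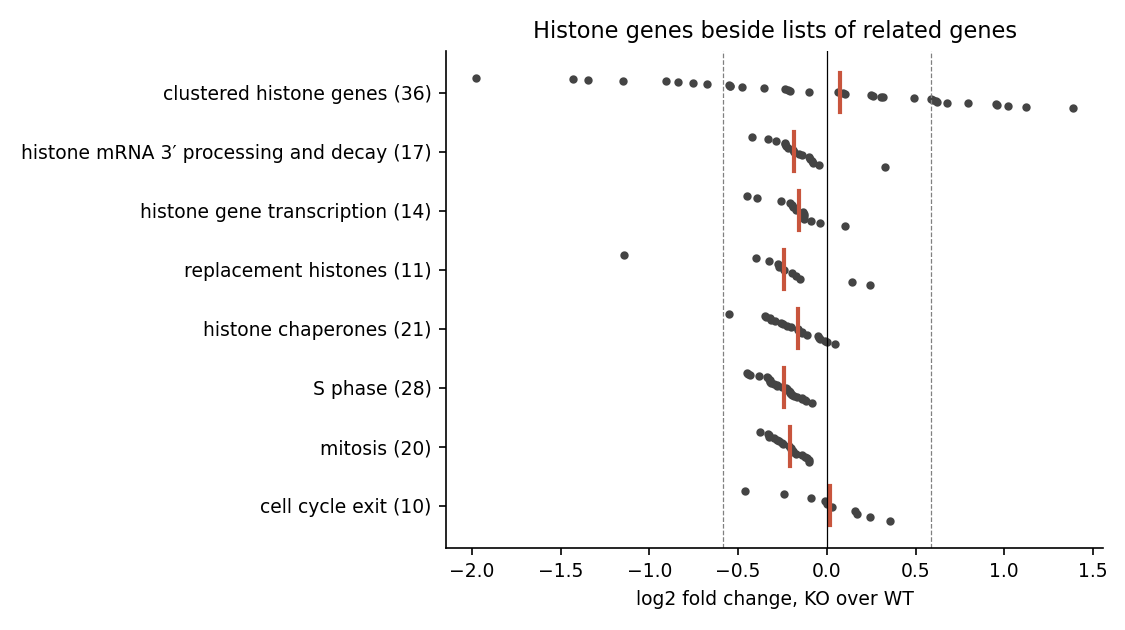
Log2 fold change of KO over WT for each tested gene of the clustered histone genes and of 7 lists of related genes, with the number tested in brackets. Red bars are medians and dashed lines a fold change of 1.5. The histone genes span -1.98 to 1.39, whereas the S phase and mitosis genes all lie below 0.

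Markers of several cell types moved with genotype. Of 12 muscle markers 9 rose in KO. All 12 keratinocyte markers fell, with a summed level of 17358 to 25746 CPM in WT and 771 to 893 CPM in KO, and so did all 9 red blood cell markers, at 3950 to 5193 CPM in WT and 548 to 669 CPM in KO. The 6 fat cell markers rose, from 105 to 137 CPM in WT to 340 to 402 CPM in KO, as did 4 of 7 macrophage markers, from 225 to 243 CPM to 337 to 366 CPM. Of 8 cartilage markers 1 rose and 3 fell, of 7 bone markers 1 rose and 1 fell, and of 6 Schwann cell markers 1 rose. None of these markers was at 0. Their part in the histone results was not tested. In bulk tissue, fewer cells of a type and less RNA per cell cannot be told apart.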

How the data were processed

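RNA-seq counts of fetal leg muscle from 3 WT and 3 KO samples were used. According to the methods and the submitters' processing notes, the authors trimmed 150 bp paired-end reads with Trim Galore 0.6.6, mapped them to mm10 with HISAT2 2.2.1 and counted them per gene with featureCounts 2.0.1. They deposited whole-number counts for each gene, which were not normalized. Strand, overlap and multiple-match settings are not given in the sources used here. The members and gene lists were chosen with earlier results of these data known.

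Counts were analysed in R 4.3.3 with edgeR 4.0.16 (filterByExpr, TMM, quasi-likelihood F-test on genotype), with Benjamini-Hochberg adjustment over 22071 genes. SE is the absolute log2 fold change divided by the square root of F. The total counts were 82054811 to 102233181 per sample. Per-sample values are given for the 12 members highest per kb and for called members with at least 0.5 CPM on average, and other members are named with a log2 fold change or counts. Gene positions, transcripts and 100-base stretches came from GENCODE M21 (GRCm38, the assembly of mm10), promoters from RefSeq GRCm38.p6. Alternatives were other scaling factors, DESeq2 1.42.0, limma-voom 3.58.1, other filters and thresholds, a replicate block and leaving out each sample. The fits were tested on simulated data. Groups of 3 samples were too small for a test of outlying samples.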

Additional observations from a re-analysis of the deposited data

How the results depend on the processing

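Of 9 members higher and 3 lower in KO, 7 and 3 were called with a replicate block, which did not call *Hist1h2ac* and *Hist1h4h*. Same-numbered samples of the genotypes deviated from their group means with correlations of -0.20, -0.13 and 0.05, so the numbers do not pair them. The block gave 1744 genes higher and 1777 lower, beside 1835 and 1852 without it. With a fold change over 2, 3 members were higher and 3 lower, and 774 genes higher and 1269 lower. Without a fold limit, 4838 genes were higher and 5098 lower. With at least 10 counts in every sample, 1 member was lower, since the others could not be tested. Leaving out each sample gave 5 to 10 members higher, the fewest without KO replicate 3, and 3 to 5 lower, the most without KO replicate 2. DESeq2 gave 9 and 4, and limma-voom 8 and 4. Listed genes lower in KO were 1, 2 with library size only, and 1 to 2 when each sample was left out. The summed level in KO was 1.51 times that in WT, 1.31 times without *Hist1h1c*, 1.18 times without the 6 most counted members, and 1.45 to 1.61 times when each sample was left out. For the 32 genes named with a test, no alternative reversed a direction, and over all alternatives 20 calls were lost and 7 gained. Among members with under 50% of their 100-base stretches shared, 8 rose and 2 fell, an alternative chosen after seeing the data, as was the limit of 150 bases. At this depth, 31 members had too few counts to be tested.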
